A study of Nothobranchius furzeri with 10 samples.

Results

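In the brain libraries of this study, 76 of 26739 genes followed, in their level, 2 sets of libraries that cross the exercise and control groups. Each was higher, or lower, in a set's libraries than in all others. The members were chosen from the measured values themselves. Counts were scaled to a library total of 1000000 (CPM), log2(CPM + 0.5) was taken, and a gene was kept if its highest CPM was 2 or more and its Pearson correlation with membership in a set was 0.9 or more in size. The 2 sets were themselves found in these libraries in earlier work on the same data. Set 1 is exercise replicates 2 and 4 and control replicates 1 and 4, and set 2 is exercise replicates 1, 3, 4 and 5 and control replicate 2. Exercise replicate 4 belongs to both sets, and control replicates 3 and 5 belong to neither. Of the 76 genes, 44 were higher and 2 were lower in the set 1 libraries, and 25 were higher and 5 were lower in the set 2 libraries. No gene was in more than 1 of these 4 lists, and together they were 0.437% of the 17375 genes with a highest CPM of 2 or more. The level difference between a set's libraries and the others is what the rule selected, so it is given below as a description with no test.

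The libraries came from brains of male turquoise killifish (Nothobranchius furzeri) of line 4010 carrying Tg(mylz2:egfp,tfam), all aged 10 weeks. The exercise group is 5 libraries from fish with swim-tunnel exercise, and the control group is 5 libraries from fish with no perturbation, and both groups carry the transgene. The mylz2 promoter is active in fast skeletal muscle and not as a rule in brain, so the tissue studied here is not the one in which the promoter is known to drive egfp and tfam. The labels give neither the duration of swimming nor any tank, litter or preparation batch, and do not say whether each library is a separate fish, so the spread behind each p-value may be technical.

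Nothobranchius furzeri is an annual fish of seasonal African ponds that is used in ageing research because its life is short. In a swim tunnel a fish swims against a water current, which raises the work of its muscles and its oxygen use. Fish brain RNA is a mixture from neurons, radial glia, oligodendrocytes, microglia, blood vessels and blood. In such bulk RNA, fewer cells of a type and less RNA per cell cannot be told apart. Genes that go up and down together across individuals are commonly described as a module, whatever their function. The files give identifiers of a single numbering scheme without gene names, and 0 of the 26739 identifiers matched the RefSeq gene table, so the roles of the genes, the brain markers and the transgene were not scored here.

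Between 21159184 and 38058622 counts per library were assigned to genes (21.2 to 38.1 M, in units of 1000000 counts). The exercise libraries held 29.5 ± 4.95 M counts and the control libraries 24.8 ± 2.88 M counts (SD, n = 5 each; two-sided exact permutation p = 0.103, adjusted p = 0.103 over 2 measures). Over the 45 pairs of libraries, the chi-square statistic was 10.6 to 40.5 times its degrees of freedom, so no library was counted as a copy of another. Set 1 libraries were on average deeper than the others, with 26.3 to 38.1 M counts against 21.2 to 27.8 M, and had more genes with at least 1 count, 21800 to 22006 against 21669 to 21830. Set 2 libraries had 21.2 to 28.8 M counts against 22.3 to 38.1 M, and 21669 to 21891 detected genes against 21727 to 22006. The part of depth in the lists was not tested.

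The largest difference of all members belonged to Nfu_g_1_014206, which was higher in set 2. Its level was 879 CPM in exercise replicate 1, 1075 CPM in exercise replicate 3, 1616 CPM in exercise replicate 4, 1725 CPM in exercise replicate 5 and 1384 CPM in control replicate 2. Outside the set it was 7.20 CPM in exercise replicate 2, 0.332 CPM in control replicate 1, 14.0 CPM in control replicate 3, 1.37 CPM in control replicate 4 and 0.809 CPM in control replicate 5. All 5 set 2 libraries thus lay far above the others, and the lowest of them was 63.0-fold above the highest library outside. Mean levels were 1336 ± 357 CPM in the set 2 libraries and 4.73 ± 5.86 CPM in the others (SD, n = 5 each), a ratio of 282. Raw counts lay between 24480 and 46580 in the set 2 libraries and between 9 and 379 in the others.

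Per length, using 615 bp recovered for this gene, its level was 2172 RPKM (CPM per kilobase) on average in the set 2 libraries and 7.70 RPKM in the others. This placed it among the most abundant transcripts of the brain in the set 2 libraries, at rank 39 in exercise replicate 1, 23 in exercise replicate 3, 5 in exercise replicate 4, 9 in exercise replicate 5 and 13 in control replicate 2, out of 22897 genes with a length. Outside the set its rank was between 3695 and 17874. It made up 51.1% to 75.6% of the summed CPM of the 25 genes in the set 2 libraries. That sum was 1721 to 2449 CPM in the set 2 libraries and 104 to 125 CPM in the others. Without this gene the sum was 521 to 842 CPM in the set 2 libraries and 103 to 117 CPM in the others. The other genes of the list were each chosen by the same rule, so their sum had to keep these libraries apart.

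**Figure D1:**
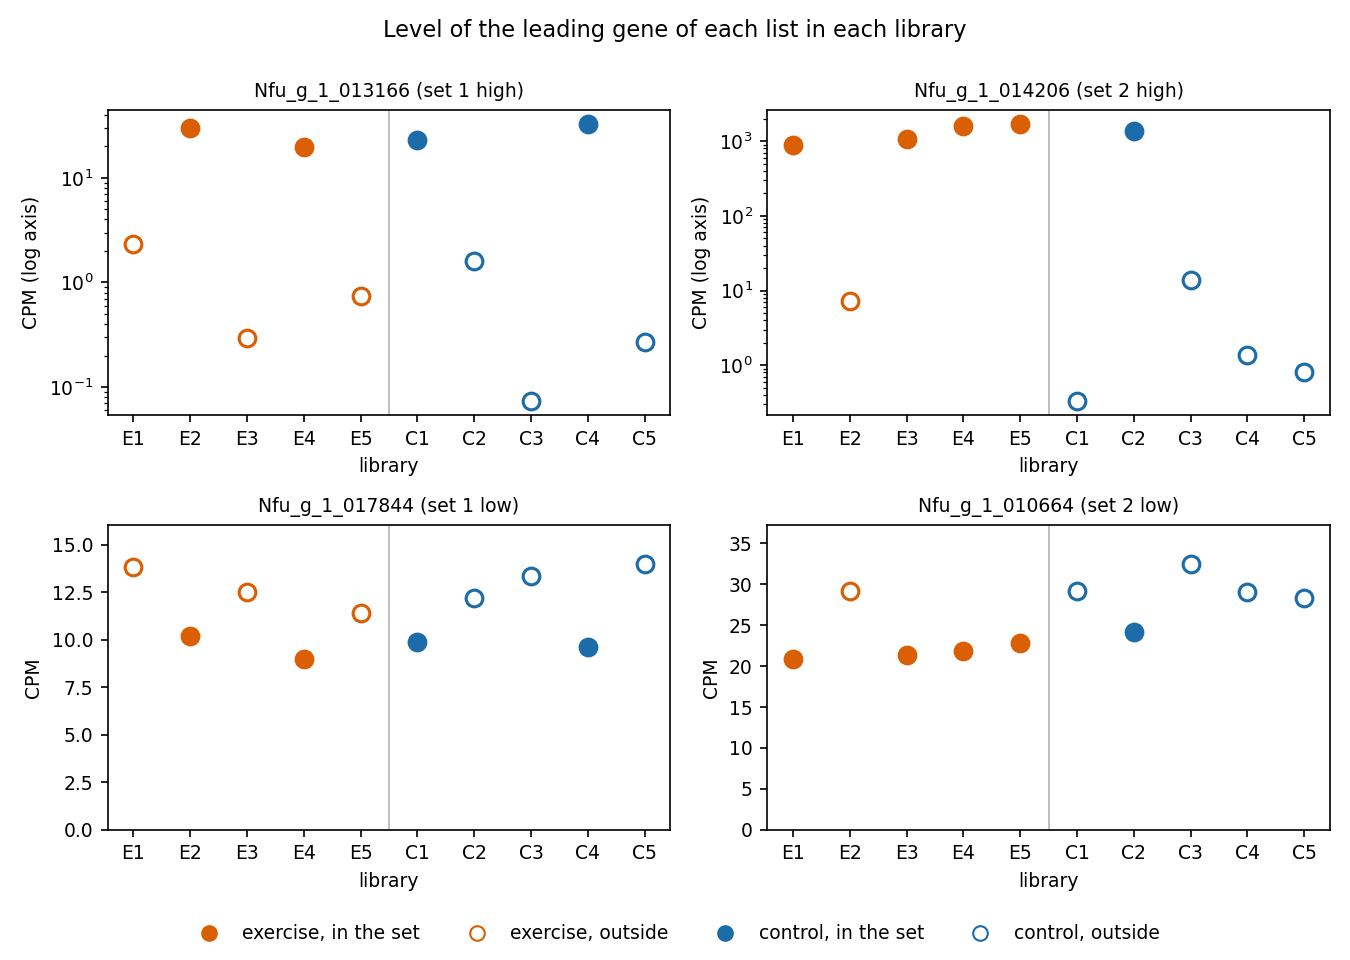
CPM of the gene with the largest difference in each of the 4 lists, by library (E exercise, C control, numbered by replicate). Filled points are libraries of the set and open points the others. The axes of the upper panels are logarithmic and those of the lower panels start at 0. Nfu_g_1_014206 lies between 879 and 1725 CPM in the set 2 libraries and at 14.0 CPM or less elsewhere, whereas the means of the genes in the lower panels differ by 1.33-fold.

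The 25 genes higher in set 2 were 0.144% of the 17375 genes with a highest CPM of 2 or more. Their difference of mean log2(CPM + 0.5) between the set 2 libraries and the others ran from 0.40 to 8.78 with a median of 2.21, where the median over all 17375 genes was 0.0017. As a ratio of mean CPM, 10 genes reached 16, 7 lay between 4 and 16, 5 lay between 2 and 4, and 3 lay under 2. In 20 of the 25 the lowest set 2 library was at least 2-fold above the highest library outside. The list thus ranged from genes that were nearly missing from the libraries outside the set to genes that were expressed everywhere and differed moderately. At the lower end, the member with the smallest difference stood at 3.69 to 4.49 CPM in the set 2 libraries and at 2.66 to 3.28 CPM in the others.

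The second-largest difference in this list was that of a gene of 1904 bp, with 194, 228, 206 and 192 CPM in exercise replicates 1, 3, 4 and 5 and 201 CPM in control replicate 2. Outside the set it had 1.73 CPM in exercise replicate 2, and 0.111, 3.09, 0.228 and 0.315 CPM in control replicates 1, 3, 4 and 5. Its level was nearly equal among the set 2 libraries, the highest being 1.19-fold above the lowest. Over the whole list this ratio of highest to lowest set 2 library had a median of 1.82, and over all 17375 genes the median was 1.29.

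In 3 genes of the list exercise replicate 4 was under 0.5 times the median of the other set 2 libraries, where 1.06% of all 17375 genes met this. The third-largest difference was that of a gene of 948 bp, at 277, 230, 33.8 and 227 CPM in exercise replicates 1, 3, 4 and 5 and 259 CPM in control replicate 2, and at 2.54 CPM or less outside the set. A gene of 1516 bp stood at 79.5, 80.03, 10.03 and 32.3 CPM in exercise replicates 1, 3, 4 and 5 and at 77.4 CPM in control replicate 2, and at 0.70 CPM or less outside. A gene of 2031 bp stood at 17.3, 11.4, 3.33 and 11.04 CPM in exercise replicates 1, 3, 4 and 5 and at 14.7 CPM in control replicate 2, and at 0.553 CPM or less outside. In each of these genes exercise replicate 4 lay between the other set 2 libraries and the libraries outside the set, and in the gene of 1516 bp exercise replicate 5 did so as well. In Nfu_g_1_014206 and the gene of 1904 bp exercise replicate 4 was within the range of the other set 2 libraries. These 3 genes were picked out after their values had been seen.

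Among the libraries outside set 2 the remaining level was unequal. As a percentage of the gene's mean in the set 2 libraries, Nfu_g_1_014206 was at 1.05% in control replicate 3 and 0.539% in exercise replicate 2, and at 0.0248%, 0.102% and 0.0605% in control replicates 1, 4 and 5. The gene of 1904 bp was at 1.52% in control replicate 3 and 0.85% in exercise replicate 2, and at 0.0542% to 0.154% in the other 3 libraries outside. The gene of 948 bp was at 1.24% in control replicate 3 and 0.435% in exercise replicate 2, and at 0.185% to 0.341% in the others outside. In the 4 genes of largest difference, control replicate 3 was thus the highest library outside the set and exercise replicate 2 the next. Over the 25 genes, control replicate 3 was the highest outside in 11 and exercise replicate 2 in 5. Over all 17375 genes these libraries were the highest of the same 5 in 20.02% and 21.6%.

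The 44 genes higher in set 1 were 0.253% of the 17375 genes with a highest CPM of 2 or more, and were in general less abundant than those of set 2. Their highest CPM had a median of 4.43, against 12.04 for the genes higher in set 2 and 25.9 for all 17375 genes. Per length, their mean level in the set 1 libraries ran from 0.149 to 57.2 RPKM with a median of 2.90 RPKM. The difference of mean log2(CPM + 0.5) between the set 1 libraries and the others ran from 0.39 to 4.49 with a median of 2.12, where the median over all 17375 genes was 0.0099.

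By ratio of mean CPM, 17 of the 44 reached 16, 17 lay between 4 and 16, 6 lay between 2 and 4, and 2 lay under 2. The other 2 had 3 or fewer counts in all 6 libraries outside the set together. One of them, a gene of 213 bp, had 2 counts outside the set and was 291-fold higher by pooled counts (exact 95% interval 79.97 to 2406, for counting error only). The other, of 891 bp, had 3 counts outside and was 87.0-fold higher (exact 95% interval 29.4 to 425, likewise). Both genes were chosen by this difference, so these ratios and intervals are a description only and do not measure the spread between libraries. In 37 of the 44 the lowest set 1 library was at least 2-fold above the highest library outside. A count of 0 occurred in 23 of the 264 values outside the set, spread over 11 genes, and in none of the values of the set 1 libraries.

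Nfu_g_1_013166 had the largest difference of the list. It stood at 30.03 CPM in exercise replicate 2, 19.7 CPM in exercise replicate 4, 23.0 CPM in control replicate 1 and 33.0 CPM in control replicate 4. Outside the set it stood at 2.33, 0.295 and 0.744 CPM in exercise replicates 1, 3 and 5 and at 1.61, 0.0737 and 0.270 CPM in control replicates 2, 3 and 5. The 4 set 1 libraries lay above all others, the lowest of them 8.43-fold above the highest library outside. Mean levels were 26.4 ± 6.15 CPM in the set 1 libraries (SD, n = 4) and 0.887 ± 0.897 CPM in the others (SD, n = 6), a ratio of 29.8. Raw counts were 567 to 1143 in the set 1 libraries and 2 to 65 in the others.

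The most abundant gene of this list per length, of 1050 bp, had the fourth-largest difference. It stood at 53.3 and 45.8 CPM in exercise replicates 2 and 4 and at 62.3 and 78.8 CPM in control replicates 1 and 4. Outside the set it was between 2.62 and 5.58 CPM, a clear but not negligible level. A gene of 1392 bp stood at 56.0 and 62.2 CPM in exercise replicates 2 and 4 and 53.5 and 64.1 CPM in control replicates 1 and 4, against 17.6 to 27.7 CPM outside. This gene was well expressed in every library and was 2.58-fold higher in the set 1 libraries.

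The set 1 libraries differed among themselves in the same way in most of these genes. Control replicate 4 was the highest of them in 34 of the 44 genes and exercise replicate 4 the lowest in 31, where over all 17375 genes the shares were 21.4% and 26.1%. As a percentage of the gene's mean over the set 1 libraries, the median over the 44 genes was 94.7% in exercise replicate 2, 76.3% in exercise replicate 4, 95.5% in control replicate 1 and 131% in control replicate 4. The same medians over all 17375 genes lay between 98.4% and 101%. Control replicate 4 held 26.3 M counts, the fewest of the set 1 libraries, and exercise replicate 2 held 38.1 M, the most. The summed CPM of the list was 476 and 401 in exercise replicates 2 and 4 and 467 and 583 in control replicates 1 and 4, against 134 to 163 in the libraries outside. Much of the sum outside came from genes of 7949, 1392 and 5491 bp, with means of 72.1, 22.8 and 21.2 CPM there. By library outside, the median over the 44 genes was 6.22% to 10.2% of the gene's mean over the set 1 libraries.

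Outside set 1 the remaining levels also differed between libraries. In the 28 genes with a log2 difference of 2 or more, the median level was 7.80% of the set 1 mean in exercise replicate 1 and 5.71% in control replicate 2, and between 1.86% and 3.11% in exercise replicates 3 and 5 and control replicates 3 and 5. Exercise replicate 1 was the highest library outside in 13 of these 28 genes and control replicate 2 in 6, where over all 17375 genes the shares were 20.4% and 10.9%. Nfu_g_1_013166 had 8.83% in exercise replicate 1 and 6.08% in control replicate 2, and 0.279% to 2.82% in the other 4 libraries outside. Many of the 28 genes held few counts outside the set, so their percentages and their highest library outside rest on values near 0. Their counts in all 6 libraries outside together ran from 2 to 688, with 15, 9 and 8 for the genes ranked 8, 12 and 15 by difference. Nfu_g_1_013166 held 2 to 65 counts in each library outside, and in this gene these libraries were not uniformly at their lowest level.

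**Figure D2:**
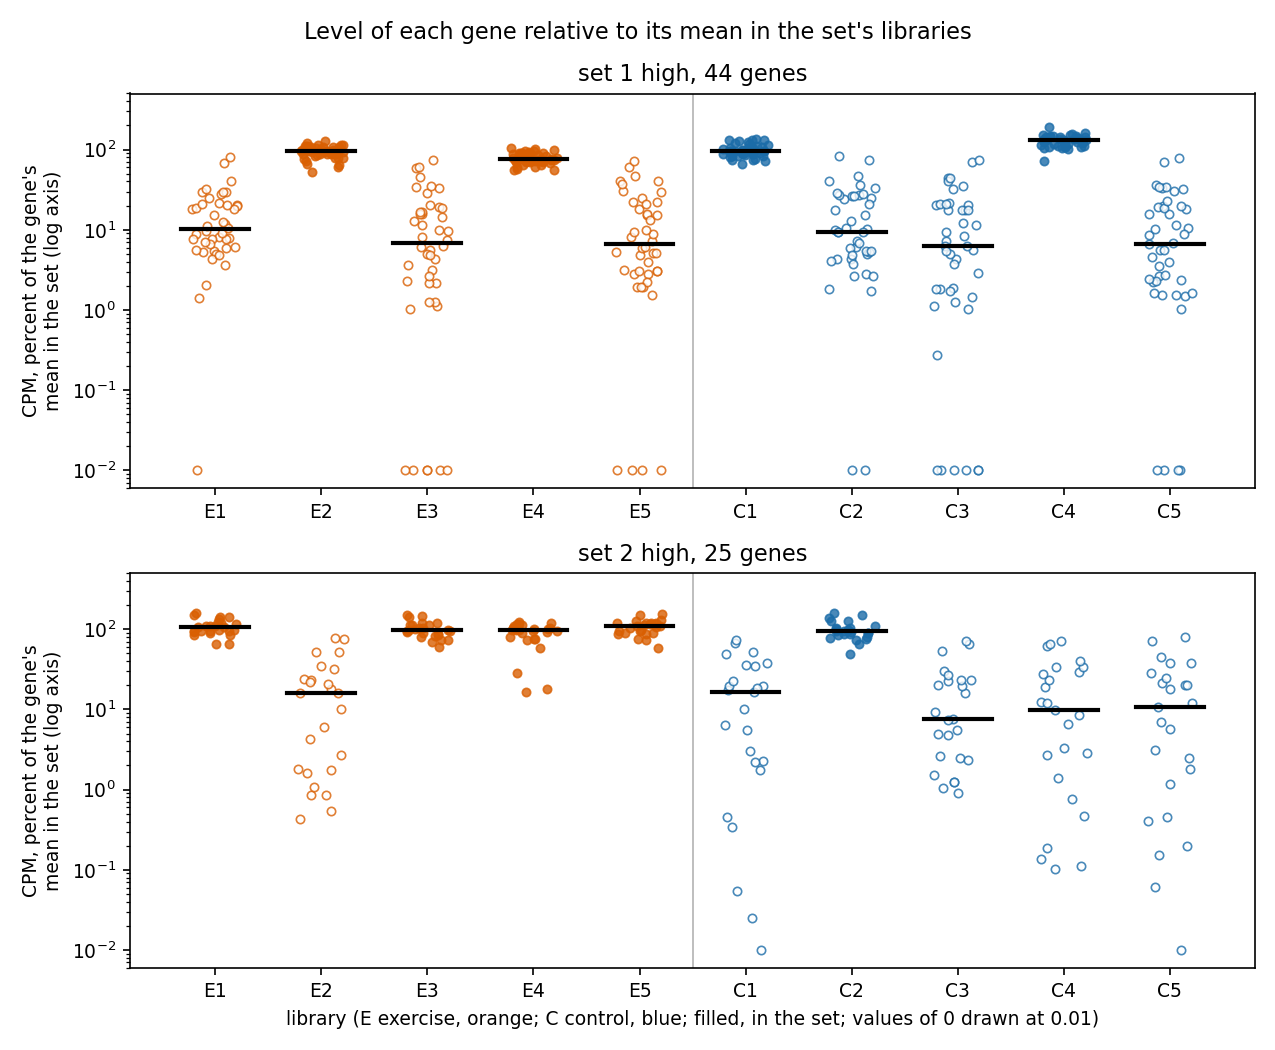
CPM of each gene higher in set 1 (above, 44 genes) and in set 2 (below, 25 genes) as a percentage of its mean over the set's libraries, on a logarithmic axis, by library. Each point is a gene, bars are medians, filled points are libraries of the set, and values of 0 are drawn at 0.01. In set 1 the medians of the set's libraries run from 76.3% in exercise replicate 4 to 131% in control replicate 4. In set 2 the 3 genes with a lower level in exercise replicate 4 stand apart from the others.

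Only 2 genes were lower in set 1 (0.0115% of the 17375) and 5 were lower in set 2 (0.0288%), and their differences were small. Nfu_g_1_017844 stood at 10.2 and 8.99 CPM in exercise replicates 2 and 4 and at 9.91 and 9.60 CPM in control replicates 1 and 4. Outside set 1 it stood at 13.8, 12.5 and 11.4 CPM in exercise replicates 1, 3 and 5 and at 12.2, 13.4 and 14.0 CPM in control replicates 2, 3 and 5. Mean levels were 9.67 ± 0.518 CPM in the set 1 libraries (SD, n = 4) and 12.9 ± 1.01 CPM in the others (SD, n = 6), which is 1.33-fold lower in the set. The other gene of this list, of 2599 bp, stood at 134 to 137 CPM in the set 1 libraries and at 148 to 156 CPM in the others.

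Nfu_g_1_010664 led the genes lower in set 2. It stood at 20.8, 21.4, 21.8 and 22.9 CPM in exercise replicates 1, 3, 4 and 5 and at 24.2 CPM in control replicate 2. Outside the set it had 29.2 CPM in exercise replicate 2, and 29.1, 32.4, 29.0 and 28.4 CPM in control replicates 1, 3, 4 and 5. The groups of libraries did not overlap, but the gap between them was 1.17-fold, and the means differed by 1.33-fold. The other 4 genes of the list were 1.10-fold to 1.20-fold lower in the set 2 libraries. No gene that was high outside a set and nearly missing within it met the rule in either set. Without the correlation rule the directions were closer to even. Over all 17375 genes, 67 had a log2 difference of 1 or more for set 1 and 51 of -1 or less, and for set 2 these numbers were 45 and 46.

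**Figure D3:**
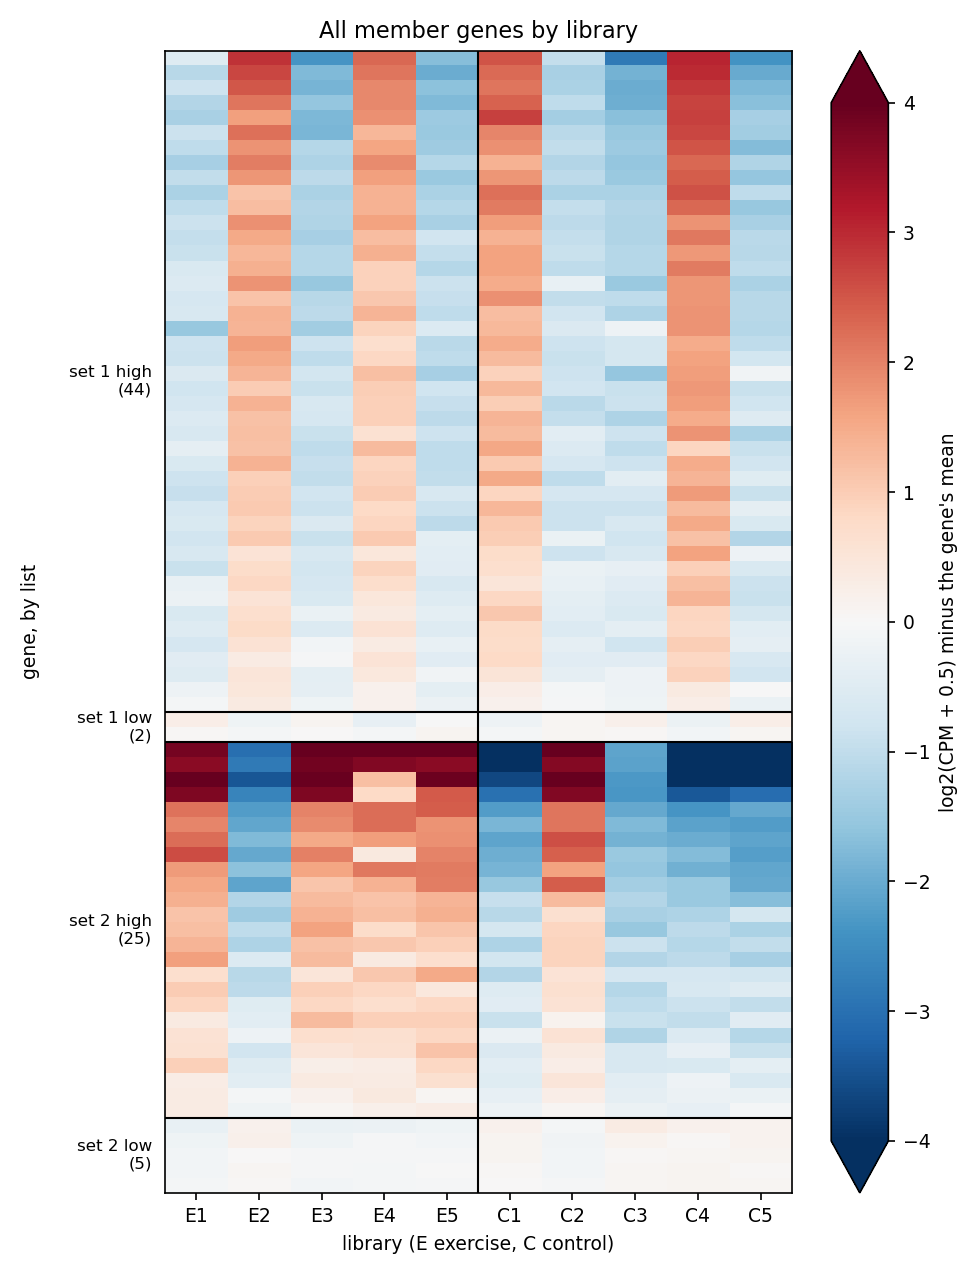
All 76 genes (rows, grouped by list and ordered by the size of the difference) in the 10 libraries (columns, E exercise left of C control). Colour is log2(CPM + 0.5) minus the gene's mean, limited to 4 in either direction. The 44 genes higher in set 1 are red in exercise replicates 2 and 4 and control replicates 1 and 4, and paler down the list as the difference gets smaller. The 25 genes higher in set 2 are red in exercise replicates 1, 3, 4 and 5 and control replicate 2, and likewise paler down the list. The 7 genes of the low lists are nearly white, as are the last genes of the high lists.

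For the genes higher in set 1 the last gene inside had a correlation of 0.902 and a log2 difference of 1.41, and the first outside 0.8995 and 0.24. For those higher in set 2 the last inside had 0.902 and 0.40, and the first outside 0.898 and 0.51. Between correlations of 0.89 and 0.90 lay 4 further genes for set 1 and 3 for set 2. For the genes lower in set 1 the last inside had -0.909 and the first outside -0.888. For those lower in set 2 the last inside had -0.914 and the first outside -0.886. Between 0.89 and 0.90 in size lay 0 further genes for either of these lists. Both lists are short, and their numbers moved with the threshold, to 9 and 17 at 0.85 and to 1 and 0 at 0.95. The number of genes higher in set 2 was 47 without exercise replicate 2 and 39 without control replicate 1, where the main count was 25. The 44 genes higher in set 1 became 40 to 62 with any 1 library left out.

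The rule did not use gene length directly. It used CPM, which is not scaled by length, so length may have entered through the counts. Genes higher in a set had a median recovered length of 1972 bp in set 1 and 1904 bp in set 2, against 2827 bp for all 17375 genes. The 5 genes lower in set 2 had a longer median, 3934 bp. Lengths of the genes higher in a set ran from 213 to 7998 bp in set 1 and from 354 to 8118 bp in set 2. The genes that differed by less than 2-fold were longer than the list medians, at 5491 and 7949 bp in set 1 and at 3216, 6450 and 8118 bp in set 2. No test was made of these lengths.

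Some genes higher in set 1 stood in adjacent rows of the deposited table, whose rows are not in the order of the identifiers. Of the 44 genes, 7 stood in 3 such runs. How many members of a list of this size would stand in adjacent rows anyway was not worked out for any list. In one run a gene of 7949 bp, at 94.9 ± 5.80 CPM in the set 1 libraries (SD, n = 4) and 72.1 ± 4.21 CPM in the others (SD, n = 6), was followed by genes of 636 and 477 bp. These were at 17.6 ± 4.97 and 15.1 ± 4.34 CPM in the set 1 libraries (SD, n = 4) and at 0.495 ± 0.281 and 0.560 ± 0.352 CPM in the others (SD, n = 6). The difference in mean CPM was thus 22.8 for the long gene and 17.1 and 14.6 for the short ones. In another run Nfu_g_1_013166 was followed by a gene of 5491 bp, at 30.9 ± 2.68 CPM in the set 1 libraries (SD, n = 4) and 21.2 ± 2.20 CPM in the others (SD, n = 6). There the difference in mean CPM was less equal, at 25.5 for Nfu_g_1_013166 and 9.71 for the longer gene. The third run held genes of 2048 and 4636 bp, which were 45.0-fold and 11-fold higher in the set 1 libraries. Both genes of the list that differed by less than 2-fold therefore stood beside genes of the list that differed more, by 29.8-fold and 35.6-fold.

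Adjacent rows were more alike than distant rows over the whole table: 3.99% of 12470 adjacent pairs of genes had a correlation of 0.8 or more across the 10 libraries, and 1.33% of 11039 pairs that stood 1000 rows apart. These correlations are across libraries that the pairs share, and the pairs are not independent. The TruSeq RNA v2 kit is not strand-specific, so reads from the overlap of genes on opposite strands cannot be told apart by strand. Whether the genes of a run overlap is not given by the files, and the part of such reads in the runs was not tested. None of the 25 genes higher in set 2 stood beside another. Of the rows beside the 44 genes higher in set 1 that were not members, 53 belonged to genes with a highest CPM of 2 or more. Of these, 2 (3.77%) had a correlation of 0.7 or more in size with set 1, against 1.91% of all 17375 genes, while their median correlation in size was 0.158, below the 0.252 of all genes. Of the rows beside the genes higher in set 2, 34 belonged to genes with a highest CPM of 2 or more, and 3 of these (8.82%) had a correlation of 0.7 or more in size with set 2, where 2.95% of all 17375 genes had, and their median correlation in size was 0.360, against 0.261 for all genes.

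The question the study posed, which genes differ between brains with and without exercise, was asked of the 76 genes in the fit over all genes. With edgeR's quasi-likelihood test on 19325 genes, 33 genes (0.171%) passed a Benjamini-Hochberg adjusted p of 0.05, and 0 of them were among the 60 tested genes of the lists. DESeq2, which called 393 of 15743 genes with an adjusted p (2.5%), gave one to 39 of the 76 genes and called 0 of them. An unadjusted p under 0.05 in edgeR's test was found for 0 of 28 tested genes higher in set 1, 0 of 2 lower in set 1, 12 of 25 higher in set 2 and 3 of 5 lower in set 2. Those 12 were all higher in exercise and those 3 all lower, where 5% of the 19325 genes had such a p and were higher and 6.72% had it and were lower. The other 16 genes higher in set 1 were removed by the low-count filter before the test. That filter looks for enough counts in 5 libraries, the size of a group, and set 1 has 4. Genes nearly missing outside set 1 could thus be removed even with many counts within it. As set 1 holds equal numbers of each group, its rule left its members little room for a low p here. Set 2 holds 4 exercise libraries and 1 control library, so its members overlap with the exercise contrast through the rule, and their log2 fold changes, 0.33 to 2.54 for all 25 genes higher in set 2, are a description only.

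Nfu_g_1_014206 averaged 1060 ± 688 CPM in the exercise libraries and 280 ± 617 CPM in the control libraries (SD, n = 5 each), and its exercise log2 fold change was 1.92 ± 1.93 (SE; edgeR adjusted p = 0.747). Without control replicate 2 the log2 fold change was 7.97 (edgeR adjusted p = 0.118), and over the 10 fits that left out 1 library the adjusted p was 0.118 to 0.864. The SE was as large as the fold change on the log2 scale, and 1 exercise library was low and 1 control library was high. The smallest edgeR adjusted p in the 4 lists was 0.218, for a gene higher in set 2 with an exercise log2 fold change of 2.54 ± 0.71 (SE). Nfu_g_1_010664, lower in set 2, averaged 23.2 ± 3.43 CPM in the exercise libraries and 28.6 ± 2.95 CPM in the control libraries (SD, n = 5 each), with a log2 fold change of -0.31 ± 0.11 (SE; edgeR adjusted p = 0.298).

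Set 1 holds 2 libraries of each group, so its members were not chosen along exercise. Genes that follow set 1 this closely can follow exercise only weakly. Their lack of a call in the fit without a set term was thus largely fixed by the rule, and is a description only. Nfu_g_1_013166 averaged 10.6 ± 13.5 CPM in the exercise libraries and 11.6 ± 15.4 CPM in the control libraries (SD, n = 5 each), with a log2 fold change of -0.13 ± 1.41 (SE; edgeR adjusted p = 0.981). Nfu_g_1_017844 averaged 11.4 ± 1.90 CPM in the exercise libraries and 11.8 ± 1.98 CPM in the control libraries (SD, n = 5 each; edgeR adjusted p = 0.894). For the 28 tested genes higher in set 1 the exercise log2 fold changes ran from -0.97 to 0.0063 with a median of -0.26, against a median of 0.0020 over all tested genes. The smallest edgeR adjusted p among them was 0.802. These genes share a library pattern, so they are not 28 separate results. Of the set 1 libraries, control replicate 4 was the highest in 34 of the 44 genes and exercise replicate 4 the lowest in 31. The part of these libraries in the median was not tested.

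Membership in a set was then added as a term to the fit of all genes. With set 1 as a term, edgeR called 28 genes in all (0.145%), of which 0 were in the 4 lists, and the exercise log2 fold change of Nfu_g_1_013166 was 0.25 ± 0.62 (SE; edgeR adjusted p = 0.911, and 0.881 to 0.987 with any 1 library left out and no such term). The median over the 28 tested genes higher in set 1 was -0.15 in this fit, and the smallest edgeR adjusted p among them was 0.336. Those genes were chosen by their correlation with this same term, so these values are a description only. With set 2 as a term, 9 genes were called in all (0.0466%), again 0 in the lists. The direction of the genes higher in set 1 turned in this fit: 28 of 28 exercise log2 fold changes were above 0 (0.12 to 1.44, median 0.59, smallest edgeR adjusted p 0.9103), where 27 of 28 were below 0 with no term. That direction follows from how the sets overlap. Outside set 2 the only exercise library is in set 1, and some control libraries are not. Within set 2, exercise replicate 4 is in set 1 and control replicate 2 is not. The genes share this library pattern, so they are not 28 separate results. With set 2 as a term the exercise log2 fold change of Nfu_g_1_014206 was 0.28 ± 0.81 (SE; edgeR adjusted p = 0.966), and the median over the 25 genes higher in set 2 was 0.08, with 16 above 0 and 9 below. The genes higher in set 2 were likewise chosen by that term, so these values too are a description only. In that fit exercise is compared between 4 exercise libraries and 1 control library within the set and 1 and 4 outside it.

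**Figure D4:**
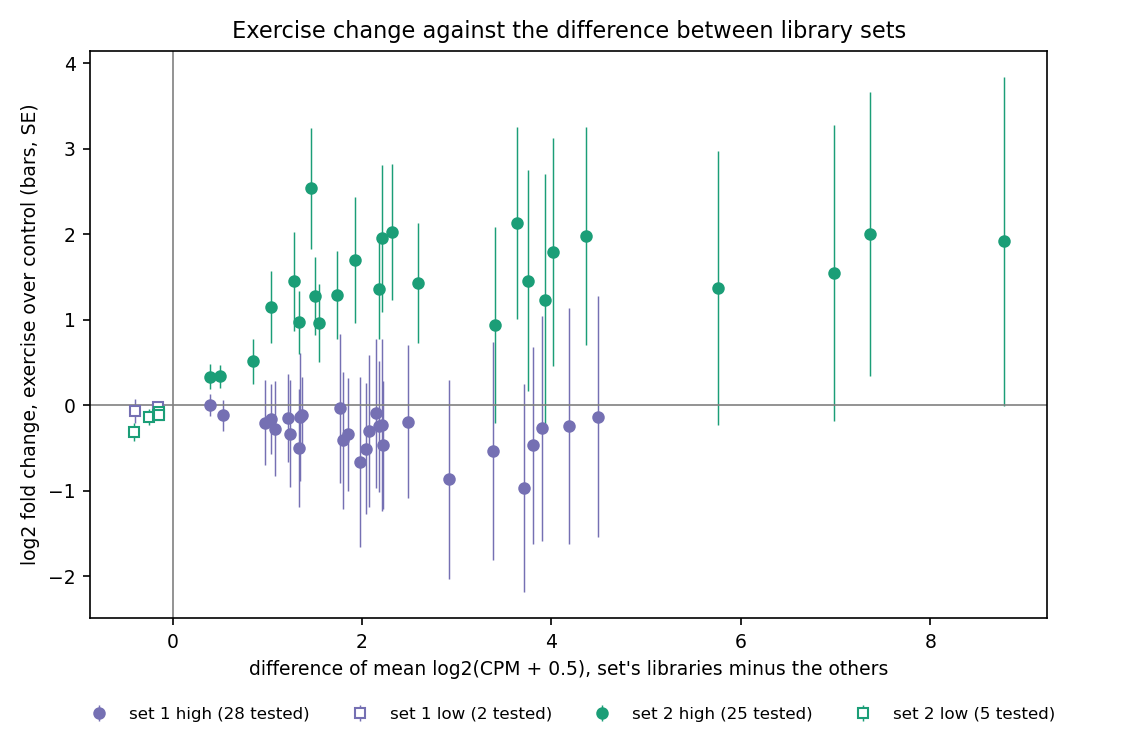
Log2 fold change of exercise over control (vertical, with SE, edgeR without a term for the sets) against the difference of mean log2(CPM + 0.5) between a set's libraries and the others (horizontal), for the 60 tested genes. The genes higher in set 1 lie between -0.97 and 0.0063, with an SE from 0.13 to 1.41. The genes higher in set 2 lie between 0.33 and 2.54, a direction that follows from the 4 exercise libraries in that set.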

How the data were processed

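The authors deposited raw counts per gene for 10 libraries, and per the submitters' processing notes the tools were featureCounts 1.4.6-p4, STAR 2.4.1d and bcl2fastq 1.8.4. The genome build was not given in the sources used here, nor was the annotation. The authors also deposited a table of RPKM values, in which each value had been divided by a library total chosen by its place in the table. This table was used only to recover gene lengths (22897 genes, 76 of the 76 members), with which 99.99% of its 218026 values above 0 were matched to within 0.0011. RPKM given in the text was computed from the counts and these lengths.

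CPM used column sums. Exercise was compared with control with edgeR 4.0.16 in R 4.3.3 (filterByExpr, TMM, robust quasi-likelihood test, Benjamini-Hochberg adjustment over 19325 genes, threshold 0.05). SE was derived from the F statistic. On simulated data for this comparison (19325 genes) with 50 altered genes at each size, edgeR called 60% of those at 1.5-fold, 88% at 2-fold, 98% at 4-fold and 100% at 8-fold, and 8 genes that had not been altered. Each gene was simulated independently, and the least abundant genes were not altered. These shares therefore do not give the share that would be called among the member genes. DESeq2 1.42.0 was an alternative. Intervals cover counting error only. Replicates are numbered in accession order.

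The members, sets and lists were chosen with earlier results of these data known. Identifiers were named by a rule: the largest difference in each list, which gives 2 that are higher and 2 that are lower. Other genes are described by length or rank. A planned list of cell type markers was not scored, as no identifier is paired with a gene name.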

Additional observations from a re-analysis of the deposited data

Results flagged for a closer look

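In each group of 5 libraries, a library was picked out when its gap to the nearest other library exceeded Dixon's 95% limit of 0.71 of the group's range, which chance exceeds in about 1 of 20 groups. This was applied to 20 groups of values (depth, detected genes, the 4 named genes and the summed CPM of the 4 lists), and 5 were picked out. Exercise replicate 2 held 38.1 M counts, more than any other exercise library. Control replicate 2, the only control library of set 2, stood apart from the other controls at 1384 CPM of Nfu_g_1_014206, at a summed 2199 CPM of the 25 genes higher in set 2 and at a summed 288 CPM of the 5 genes lower in set 2. Exercise replicate 2, the only exercise library outside set 2, stood apart from the other exercise libraries at 29.2 CPM of Nfu_g_1_010664. The last 4 follow from how the sets were chosen.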

How the results depend on the processing

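The 44 genes higher in set 1 were 40 to 62 in number with any 1 library left out and 13 with a highest CPM of 10 or more. The 25 higher in set 2 were 24 to 47, 16 with a highest CPM of 10 or more, and 45 with a correlation of 0.85 or more. The 2 lower in set 1 were 2 to 13 with 1 library left out (more than 1.5 times the main count without exercise replicate 1, 2, 3 or 5 or control replicate 1, 2 or 3), 4 with TMM-scaled library sizes, 9 at a correlation of 0.85 and 1 at 0.95. The 5 lower in set 2 were 7 to 21 (over 1.5 times the main count without any library but control replicate 3), 3 with TMM, 17 at 0.85 and 0 at 0.95. The number of genes in the low lists thus depends on the threshold and on single libraries. With any 1 library left out, all 5 genes lower in set 2 were kept, and 1 to 2 of the 2 lower in set 1. Of the high lists, 36 to 44 of the 44 genes and 21 to 25 of the 25 were kept. The median log2 difference was 3.06 and 1.19 in set 1 and 2.73 and 1.34 in set 2, each for genes higher in the set, with pseudocounts of 0.1 and 2. Without 1 library it was 2.05 to 2.21 in set 1 and 2.16 to 2.32 in set 2, and for the low lists -0.29 to -0.26 and -0.16 to -0.14.

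Exercise calls over all genes (33, 12 higher and 21 lower) became 393 with DESeq2 (167 higher, 226 lower), 9 with set 2 as a term (2 higher, 7 lower), 4 with both sets as terms (0 higher, 4 lower) and 11 to 91 with 1 library left out (1 to 27 higher, 9 to 64 lower), the highest without exercise replicate 5. The cause was not tested. Among the members the count of calls was 0 in all 17 alternatives, of which DESeq2 gave an adjusted p to 39 members and the others to 60 or 76. Over all genes tested, the shares called were 0.171% in the main edgeR fit and 2.5% with DESeq2. At such shares, 0 calls among so few genes says little about the members. For the set 1 lists the rule left little room for calls in the fits without a set term. The exercise log2 fold change of Nfu_g_1_013166 turned to 0.25 with set 1 as a term and 1.39 with set 2 as a term, and was -1.02 to 0.77 with 1 library left out. That of Nfu_g_1_017844 was 0.044 with both sets as terms and -0.14 to 0.0097 with 1 library left out. No paired analysis was possible because the labels give the groups no shared replicate numbers.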
